A study of Mus musculus with 12 samples.

Results

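The 10 genes described here encode the actin core of the intestinal microvillus and the proteins that tie it to the membrane and to the neighbouring microvilli. They are *Vil1*, *Espn*, *Pls1*, *Eps8*, *Ezr*, *Myo1a*, *Cdhr2*, *Cdhr5*, *Ush1c* and *Myo7b*. They were chosen by name, as known parts of the microvillus, with no threshold on their values, and are 10 of the 34245 genes counted. The choice was made with earlier results of these data known. RNA was sequenced from 2 cell populations of the small intestine of male Lgr5-EGFP-IRES-CreERT2 mice on a C57BL/6 background, with 3 libraries each of young and aged intestinal stem cells (ISC) and of young and aged adult enterocytes (AE). Young mice had a mean age of 8 months and aged mice of 27 months, and all carried the reporter. ISC were crypt cells with high GFP, which this knock-in expresses from the *Lgr5* locus. AE were Epcam-high villus cells without CD31 or CD45, a gate that does not select enterocytes from other villus epithelium. No treatment was given, and a library is named here by its code, Y1 to Y3 for young and O1, O3 and O5 for aged mice. The study's methods list 3 animals for each age but tie no code to an animal, so p-values measure the spread between these libraries.

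Each microvillus holds a bundle of actin filaments, and the enterocyte surface carries a dense array of them, the brush border, where nutrients are digested and absorbed. Villin, espin and plastin 1, encoded by *Vil1*, *Espn* and *Pls1*, bundle the filaments, and Eps8 sits at the tip where filaments grow. Ezrin and myosin-1a, encoded by *Ezr* and *Myo1a*, link the bundle to the membrane around it. The protocadherins Cdhr2 and Cdhr5 join the tips of adjacent microvilli, and inside the cell they are held by harmonin, encoded by *Ush1c*, and by the motor myosin-7b, encoded by *Myo7b*. Brush borders are assembled as cells leave the crypt and climb the villus.

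The deposited coordinates on GRCm38 were the same as the ends of these genes in GENCODE M21. In that annotation the gene *Vil1* (ENSMUSG00000026175.12) spans chr1:74409376-74435559 on the plus strand, and its exons merge into 20 blocks. The window before its start is printed here because *Vil1* had the highest level of the 10 genes, and because it held 1 of only 2 motif matches found in them. The capitals mark a CArG box, the binding sequence of serum response factor, at position -73 from the RefSeq start.

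*Vil1*, chr1:74409134-74409383, plus strand, GRCm38.p6: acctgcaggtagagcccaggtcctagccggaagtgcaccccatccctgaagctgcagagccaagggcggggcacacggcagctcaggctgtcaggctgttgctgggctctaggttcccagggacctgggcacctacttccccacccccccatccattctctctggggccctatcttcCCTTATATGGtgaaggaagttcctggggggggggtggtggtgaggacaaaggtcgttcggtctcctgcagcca

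The RefSeq promoter table held windows for 8 of the 10 genes, in all 10 windows since *Espn* has 3, and none was matched for *Eps8* and *Myo7b*. In 250 bases before the start and on both strands, the CArG box was found in 1 of the 10 windows, against 1.47% of 32851 promoters of all genes. The letters TTTATGG, bound by the caudal factors, were found in 1 window, the third of *Espn*, against 2.43% of all promoters. The letters CAAAGTCC, bound by HNF4, were found in 0 of 10 windows and in 1.20% of all promoters, and the TATA box letters TATAAA in 0 of 10 and in 12.4%. The 10 windows therefore had no motif of this set in common.

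Both populations were checked against markers of their named cell type. Of 20 enterocyte markers 20 were called higher in AE, and of 14 stem cell markers 14 were called lower, at both ages. Over all genes tested, 27.7% were called higher and 25.4% lower in young AE, and 30.0% and 34.1% in aged AE. Both lists were chosen with earlier results of these data known, so these counts are no independent check. None of either list was at 0 counts in a group. In AE the summed goblet markers were at 30063 to 61888 CPM and the enterocyte markers at 85014 to 136059 CPM, so goblet RNA was plentiful in AE libraries. Enteroendocrine markers summed to 3370.8 to 12160.5 CPM in AE, and tuft markers to 241 to 702 CPM. Among AE libraries the goblet, enteroendocrine and tuft sums were all highest in young library Y1. In ISC the enterocyte markers summed to 2326 to 12216 CPM, highest in young library Y3. T cell markers summed to at most 27.2 CPM in any library. Among AE libraries the young library Y2 had the most stem cell marker RNA, 802 CPM, against 177 to 317 CPM in the other 5. CPM here is a library's counts scaled to a common total, with TMM factors over the 12 libraries. Library totals ran from 11893817 to 110794420 counts, and 3 counts, taken as the limit of detection, were 0.0359 to 0.327 CPM.

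Transcripts of all 10 genes were more abundant in AE than in ISC, at both ages, and in every case each AE library lay above each ISC library. The share of all genes separated in this way was not counted, so the separation is not shown to be particular to the 10. Summed over the 10, young AE libraries held 18318 to 20356 CPM and aged ones 20022 to 25641 CPM, while ISC held 2467 to 3182 CPM when young and 1934 to 2486 CPM when aged. By edgeR's quasi-likelihood test at an FDR of 0.05 (Benjamini-Hochberg, over all genes tested), 10 of 10 were called higher in young AE, beside 27.7% of the 16681 genes tested and 25.4% called lower. In aged mice it was again 10 of 10, beside 30.0% of 15855 genes called higher and 34.1% called lower. The median log2 fold change of the 10 was 2.75 in young and 3.38 in aged mice, while over all genes tested it was 0.15 and -0.13. In bulk RNA, fewer cells that express a gene and less RNA per cell cannot be told apart.

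**Figure D1:**
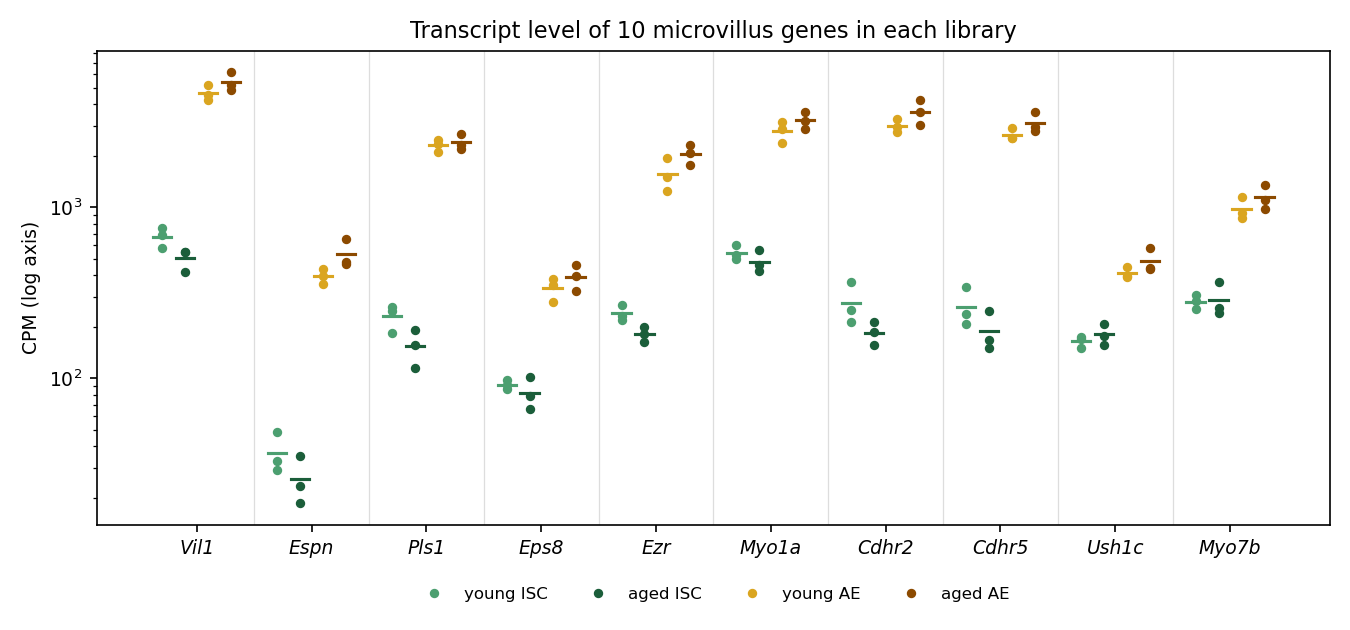
Level of each of the 10 genes (CPM, log axis) in each of the 12 libraries, as points, with the mean of each group of 3 as a bar, for young and aged ISC and young and aged AE. For every gene the 6 AE libraries lie above the 6 ISC libraries, with the narrowest gap for *Ush1c*.

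*Vil1* was the most abundant bundler per kilobase of exon. Its level was 685, 576 and 752 CPM in young ISC (Y1, Y2, Y3) and 416, 551 and 548 CPM in aged ISC (O1, O3, O5). In AE it was 4540, 5223 and 4259 CPM in young and 4862, 5175 and 6163 CPM in aged libraries. The AE libraries were thus far above all ISC libraries, and among aged ISC library O1 was lowest. *Vil1* was 6.96-fold higher in young AE (log2 fold change 2.80 ± 0.27, SE, FDR = 1.97e-04) and 10.2-fold higher in aged AE.

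*Pls1*, whose product plastin 1 also ties the bundles to the terminal web below, was at 248, 183 and 261 CPM in young ISC and at 114, 157 and 191 CPM in aged ISC. In young AE it was at 2117, 2474 and 2356 CPM, and in aged AE at 2190, 2326 and 2673 CPM. The 2 age groups overlapped in both cell types. The AE level was 10.04-fold the ISC level in young mice, a log2 fold change of 3.33 ± 0.25 (SE), and 14.8-fold in aged mice.

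*Espn* was the least abundant bundler per kilobase. It was at 29.0, 32.6 and 48.4 CPM in young ISC and at 23.5, 35.1 and 18.6 CPM in aged ISC, all well above the limit of detection. In AE it reached 437, 358 and 398 CPM in young and 479, 464 and 651 CPM in aged libraries. Its step was 19.6-fold in aged mice (log2 fold change 4.29 ± 0.29, SE) and 10.8-fold in young mice, within 1 SE of that of *Cdhr2* at both ages. Its share relative to *Vil1* also differed between the cell types, as described with the make-up of the transcripts.

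*Eps8*, the tip protein that caps and bundles actin, rose less. In ISC it was at 97.0, 86.0 and 90.8 CPM in young and 65.8, 79.2 and 101 CPM in aged libraries. In AE it was at 280, 379 and 351 CPM in young and 323, 395 and 460 CPM in aged libraries. The fold was 3.68 in young mice (log2 fold change 1.88 ± 0.18, SE) and 4.55 in aged mice, both called.

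Of the membrane linkers, *Ezr* was at 233, 219 and 267 CPM in young ISC and at 163, 182 and 200 CPM in aged ISC. In AE it was at 1251, 1935 and 1495 CPM in young and at 1773, 2069 and 2307 CPM in aged libraries. Among young AE libraries Y2 was highest. *Ezr* was 6.51-fold higher in young AE (log2 fold change 2.70 ± 0.25, SE) and 10.7-fold higher in aged AE.

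*Myo1a* stood at 2858, 3142 and 2391 CPM in the young AE libraries and at 3177, 2866 and 3621 CPM in the aged ones. Its ISC values were 497, 525 and 599 CPM in young mice, then 424, 560 and 457 CPM in aged mice. The age groups overlapped in both cell types. Its step was smaller than that of *Ezr*, 5.17-fold in young mice (log2 fold change 2.37 ± 0.24, SE) and 6.37-fold in aged mice.

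In the adhesion complex the 2 protocadherins and their 2 cytoplasmic partners showed steps of different size. *Cdhr2* was at 250, 213 and 366 CPM in the young ISC libraries and at 156, 212 and 186 CPM in the aged ones, and in AE at 2960, 2761 and 3283 CPM (young) and 3024, 3628 and 4228 CPM (aged). *Cdhr5* was at 237, 207 and 342 CPM in the young ISC libraries and at 151, 246 and 168 CPM in the aged ones, and in AE at 2920, 2539 and 2527 CPM (young) and 2778, 2961 and 3610 CPM (aged). Both were highest in Y3 among young ISC, the library with the most enterocyte marker RNA. This was not particular to them, since *Vil1*, *Espn*, *Pls1*, *Ezr*, *Myo1a* and *Ush1c* were also highest there. *Eps8* and *Myo7b* were not. *Cdhr2* was 10.8-fold higher in young AE (log2 fold change 3.44 ± 0.30, SE) and *Cdhr5* 10.2-fold (3.34 ± 0.28, SE), and in aged mice the folds were 18.6 and 15.7.

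*Ush1c*, the scaffold that binds the protocadherin tails, had the smallest step of the 10 genes. It was at 149, 171 and 173 CPM in young ISC and at 178, 208 and 157 CPM in aged ISC. In AE it was at 449, 398 and 392 CPM in young and at 437, 442 and 581 CPM in aged libraries. It was 2.51-fold higher in young AE (log2 fold change 1.33 ± 0.17, SE, FDR = 5.15e-04) and 2.56-fold higher in aged AE. An exon of *Ush1c* overlaps *Gm9860* on the other strand, which had at most 16 counts in any library. *Vil1* shares up to 49 bases of an exon with *Usp37* on the other strand, which had 163 to 1446 counts, and *Ezr* 4 bases with *Sytl3*.

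*Myo7b*, the motor of the complex, was at 306, 255 and 282 CPM in young ISC and at 242, 256 and 367 CPM in aged ISC. In AE it was at 921, 1148 and 867 CPM in young and 978, 1105 and 1347 CPM in aged libraries. The fold was 3.49 in young mice (log2 fold change 1.80 ± 0.21, SE) and 3.77 in aged mice. The 95% intervals of the log2 fold change in young mice, 0.94 to 1.72 for *Ush1c* and 1.32 to 2.28 for *Myo7b*, lay below those of *Cdhr2*, 2.76 to 4.12, and *Cdhr5*, which began at 2.69.

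**Figure D2:**
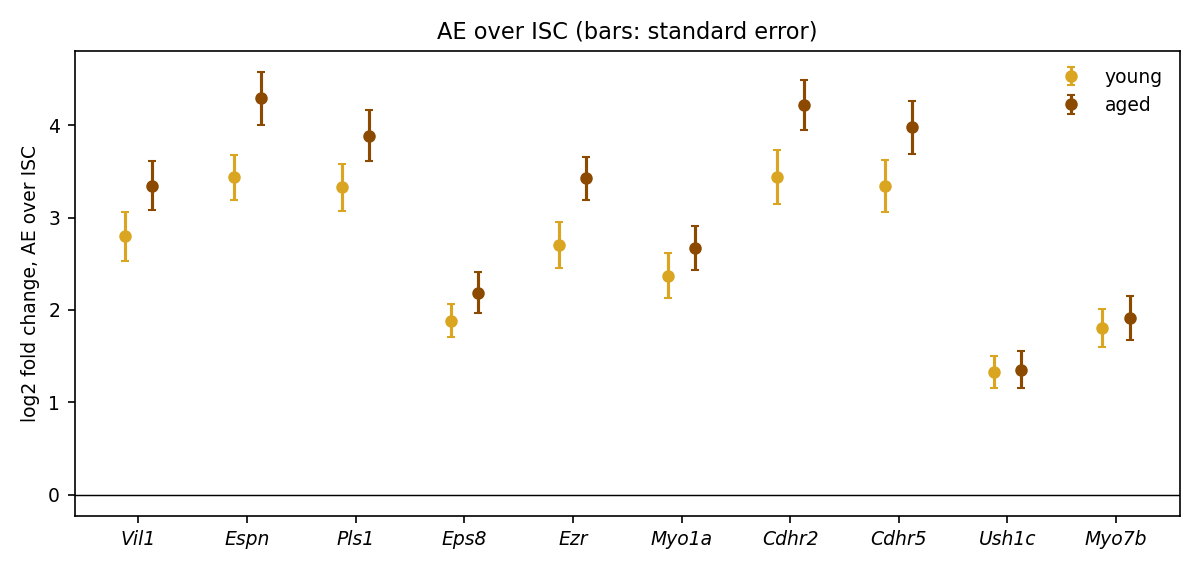
Log2 fold change of AE over ISC for each of the 10 genes in young and in aged mice, with bars of 1 standard error from edgeR. All 20 values are above 0, from 1.33 for *Ush1c* in young mice to 4.29 for *Espn* in aged mice.

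Levels were compared between genes only per kilobase of merged exon length in GENCODE M21, which counts exons that a cell type may not use. On this scale *Vil1* was highest in all 4 groups, at 1316 ± 140 CPM per kb in young AE and 1521 ± 191 in aged AE, with 189 ± 25.02 and 142 ± 21.6 in the ISC of the same ages (SD, n = 3). *Myo1a* came next in ISC, at 146 ± 14.1 CPM per kb in young and 129 ± 19.0 in aged libraries, and in aged ISC its range overlapped that of *Vil1*. *Cdhr5* came next in AE, at 972 ± 81.7 CPM per kb in young and 1138 ± 160 in aged libraries (SD, n = 3), where its range overlapped that of *Cdhr2*. *Espn* and *Eps8* were at the bottom of every group but in opposite order. In ISC *Espn* was lowest, at 4.43 ± 1.25 CPM per kb in young libraries against 7.39 ± 0.45 for *Eps8*, and in AE *Eps8* was lowest, at 27.2 ± 4.12 against 48.0 ± 4.78 for *Espn* (SD, n = 3). These ranges did not overlap in any group. In young ISC, *Cdhr5* overlapped *Ezr*, *Ezr* overlapped *Cdhr2* and *Cdhr2* overlapped *Pls1*, though *Cdhr5* lay above *Pls1* with no overlap. *Pls1* lay above *Ush1c* with no overlap, and *Ush1c* overlapped *Myo7b*. In aged ISC the genes from *Cdhr5* down to *Pls1*, 6 in all, overlapped with their neighbours. In AE *Myo7b* and *Ush1c* fell below *Pls1* and *Ezr* with no overlap, at 148 ± 22.5 and 107 ± 8.10 CPM per kb in young libraries against 595 ± 46.8 and 474 ± 105 (SD, n = 3).

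The make-up of the 10 transcripts was therefore not the same in the 2 cell types. A share of the summed counts of the 10 genes needs no scaling between libraries, and 10 shares and 4 ratios were compared between AE and ISC by an exact two-sided permutation test within age, over 400 arrangements, which cannot give a p under 0.005. These 14 measures were chosen with the fold changes known, and the shares sum to 100%, so they are not independent of each other. *Ush1c* took 5.95% ± 0.85 of these counts in ISC of young mice and 8.03% ± 1.35 in those of aged mice, but 2.16% ± 0.22 and 2.17% ± 0.10 in AE (SD, n = 3). *Myo7b* took 10.1% and 12.7% in young and aged ISC and 5.10% in AE of both ages. *Myo1a* went from 19.4% in young ISC to 14.6% in young AE, and *Eps8* from 3.30% to 1.76%. The share was higher in AE for *Cdhr2*, 9.77% in young ISC and 15.8% in young AE, for *Cdhr5*, 9.27% and 14.0%, for *Pls1*, 8.23% and 12.1%, and for *Espn*, 1.30% and 2.09%. Each of these 8 shares differed between AE and ISC at the smallest p the exact test can give (adjusted p = 0.00636 over 14). For *Vil1* and *Ezr* the difference AE minus ISC was 1.16 and 0.33 percentage points averaged over the ages, with exact permutation p-values of 0.055 and 0.55.

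**Figure D3:**
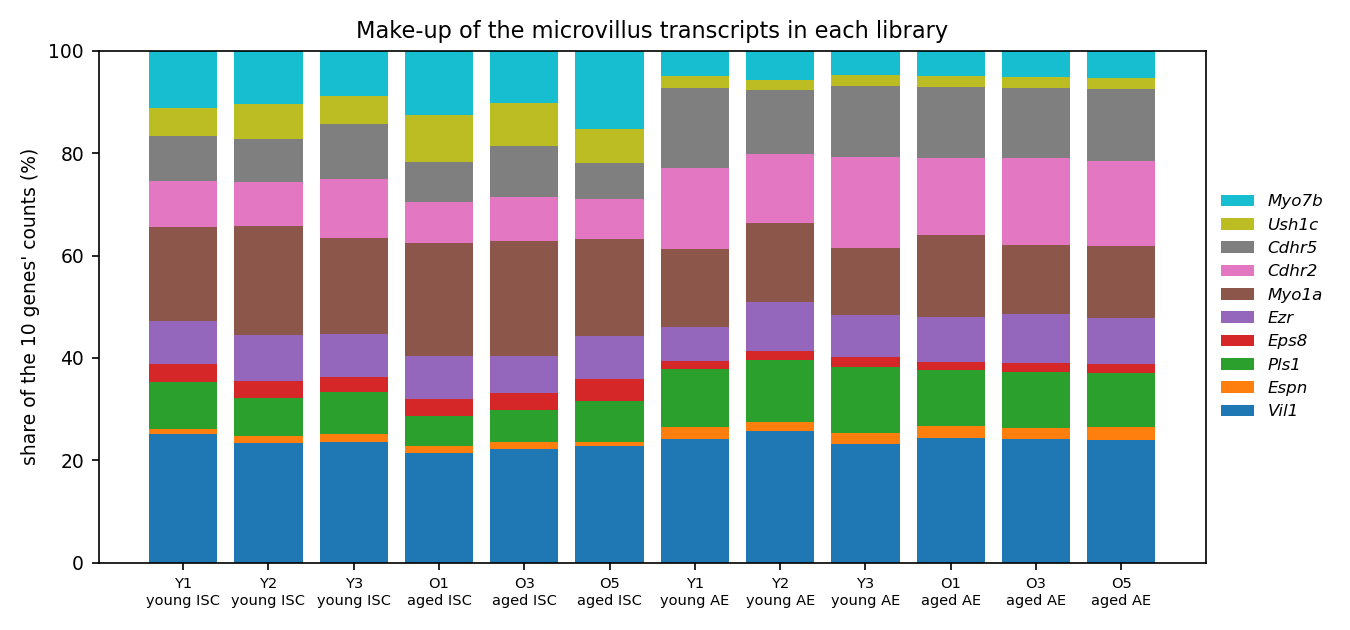
Share of each of the 10 genes in their summed counts (percent, stacked to 100) in each library, grouped as young ISC, aged ISC, young AE and aged AE. The bands of *Ush1c* and *Myo7b* are narrower, and those of *Cdhr2* and *Cdhr5* wider, in all 6 AE libraries than in the 6 ISC libraries.

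Within the adhesion complex the balance was set against each other directly, as the log2 ratio of *Cdhr2* plus *Cdhr5* counts to *Ush1c* plus *Myo7b* counts. It was 0.10, -0.02 and 0.64 in young ISC, against -0.45, -0.02 and -0.57 in aged ISC. In AE it was 2.101, 1.78 and 2.21 in young and 2.04, 2.09 and 2.02 in aged libraries. The lowest AE library stood above the highest ISC library. The difference between AE and ISC was 2.09 on the log2 scale, averaged over the ages (exact permutation p = 0.005, adjusted p = 0.00636), and 2.03 to 2.19 with any 1 library left out. *Espn* also gained on *Vil1*, by 0.82 on the log2 scale, and *Pls1* on *Vil1*, by 0.55, both at the same adjusted p, and *Ezr* on *Myo1a* by 0.53 (adjusted p = 0.0175, exact permutation test). With same-code libraries as pairs, as in a replicate block, exact sign flips over 6 pairs gave an adjusted p of 0.0729 for *Ezr* on *Myo1a*, where 5 of 6 pairs rose, so that call was lost. The 8 shares and the other 3 ratios moved the same way in 6 of 6 pairs. Their exact sign-flip p was 0.03125, the smallest this test can give, with an adjusted p of 0.0398. Between the ages, 3 libraries against 3 cannot give an exact p under 0.1, and these measures were not tested by age in another way.

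The level in ISC was next set beside that in AE, and beside the same quantity for the enterocyte markers. *Ush1c* in young ISC was at 39.8% of its level in young AE, *Myo7b* at 28.7%, *Eps8* at 27.1% and *Myo1a* at 19.3%. These 4 lay above all 20 enterocyte markers, which were at 3.57% to 15.9% with a median of 7.57%. *Ezr* at 15.4% and *Vil1* at 14.4% were inside that range near its top, and *Pls1* at 9.96%, *Cdhr5* at 9.84%, *Espn* at 9.22% and *Cdhr2* at 9.21% nearer its middle. In aged mice the same 4 genes lay above the markers, at 37.1%, 25.2%, 20.9% and 14.9% against 0.66% to 13.7%. The part of enterocyte RNA in the ISC libraries in these levels was not tested.

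No member was called between aged and young ISC. The background was 0% of 15552 genes tested, at an FDR of 0.05 by edgeR, so a count of 0 says nothing particular about these genes. The fitted log2 fold changes ran from -0.57 to 0.14 with a median of -0.40, against 0.01 over all genes, and each of the 10 had an FDR of 1.00 when rounded. At an unadjusted p under 0.05 there were 3, *Pls1* (-0.57, 95% interval -1.08 to -0.07), *Cdhr2* (-0.57, -1.09 to -0.06) and *Ezr* (-0.39, -0.74 to -0.04), and 4.47% of all genes. DESeq2 also called 0 of the 10, with 4 at an unadjusted p under 0.05. The values for *Vil1*, *Espn* and *Cdhr5* were -0.40, -0.50 and -0.47, with intervals that include 0, and for *Eps8* and *Myo1a* -0.14 and -0.16. For *Ush1c* and *Myo7b* they were 0.14 and 0.05.

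The ISC libraries of the 2 ages did not overlap for 3 of the 10 genes, *Vil1*, *Ezr* and *Cdhr2*, all lower in aged libraries, and for 0 in the other direction. For *Cdhr2* the groups nearly touched, with O3 at 212.05 and Y2 at 213.04 CPM. That gap is far under its SD of 80.0 CPM in young and 28.0 CPM in aged ISC. Over all genes tested, 4.44% were without overlap and lower in aged ISC and 4.42% without overlap and higher. Of the 20 enterocyte markers, 19 had a lower fitted value in aged ISC and 0 were called, with a median log2 fold change of -0.94. Their sum was 5212, 5153 and 12216 CPM in young and 2326, 7292 and 4142 CPM in aged ISC. The sums of the 2 ages overlapped. Library O3 had a higher sum than Y1 and Y2 but lower *Vil1*, *Ezr* and *Cdhr2* than either. Library O1, with the lowest sum, was also the aged ISC library with the lowest *Vil1*, *Pls1*, *Eps8*, *Ezr*, *Myo1a*, *Cdhr2*, *Cdhr5* and *Myo7b*, but not *Espn* or *Ush1c*. For the 14 stem cell markers that median was 0.06, with 0 called. The median of the 10 genes was -0.24 without Y3 and -0.30 without O1, and then none of the 10 was at an unadjusted p under 0.05. The share of all genes under that p was then 4.14% and 3.03%. The part of the enterocyte RNA in the age values was not tested.

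**Figure D4:**
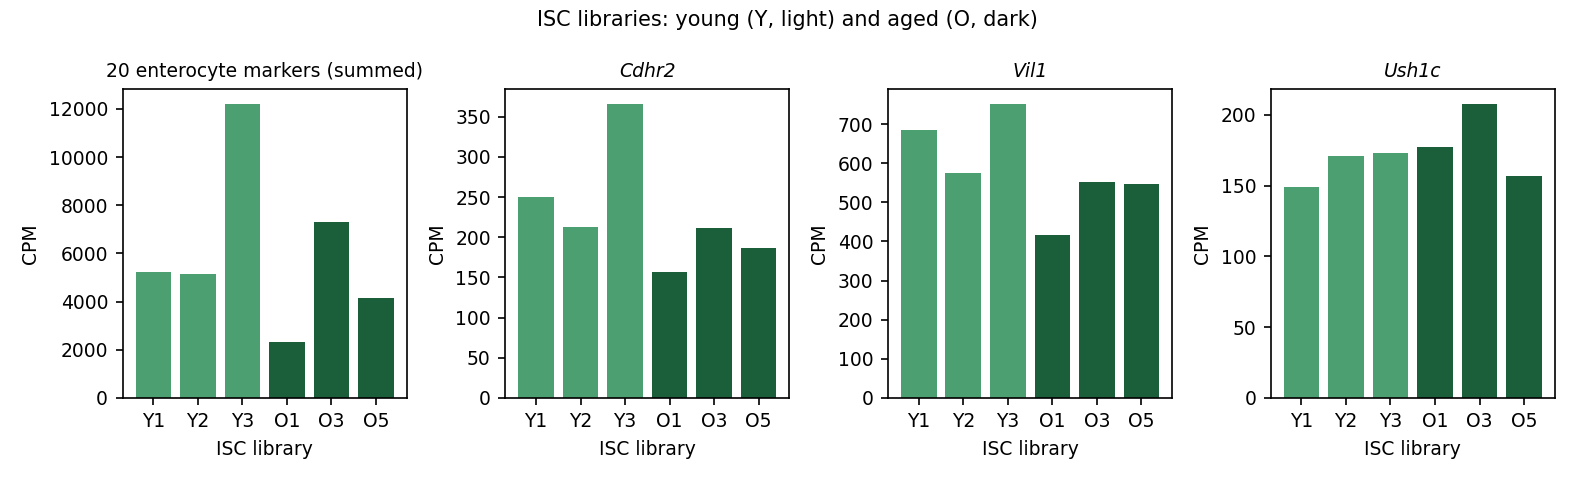
Summed level of 20 enterocyte markers and levels of *Cdhr2*, *Vil1* and *Ush1c* (CPM, each axis from 0) in the 3 young (Y, light) and 3 aged (O, dark) ISC libraries. The marker sum and *Cdhr2* are highest in Y3 and lowest in O1, while *Ush1c* is highest in O3 and lowest in Y1.

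In AE no member was called between the ages either, again beside 0% of 16265 genes tested by edgeR. All 10 fitted log2 fold changes were above 0, from 0.07 for *Pls1* to 0.44 for *Espn*, with a median of 0.24 against -0.04 over all genes, and FDR values from 0.833 to 0.956. *Espn* alone had an unadjusted p under 0.05 (0.44, 95% interval 0.02 to 0.85), beside 4.97% of all genes, and DESeq2 also called 0 of the 10 and had 1 under that p. *Espn* was also the 1 gene whose age groups did not overlap, at 358 to 437 CPM in young and 464 to 651 CPM in aged AE. Among all genes 4.01% were without overlap and higher in aged AE, and 6.94% without overlap and lower. The next values were 0.41 for *Ezr* and 0.29 for *Cdhr2*. Enterocyte markers had a median of 0.33, with 20 of 20 fitted values above 0 and 0 called. Stem cell and proliferation markers had medians of -0.76 and -1.42, also with 0 called, and were highest in Y2, whose proliferation markers summed to 454 CPM against 87.7 to 154 CPM in the other 5 AE libraries. Library O5 was the highest of the 6 AE libraries for all 10 genes, and without it the median of the 10 was 0.13. Without O5, without Y3, or in a fit over all 4 groups, none of the 10 was at an unadjusted p under 0.05. The share of all genes under that p was 2.58% without O5, 13.9% without Y3 and 7.39% in the fit over 4 groups. Y3 was the deepest AE library, at 110794420 counts.

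**Figure D5:**
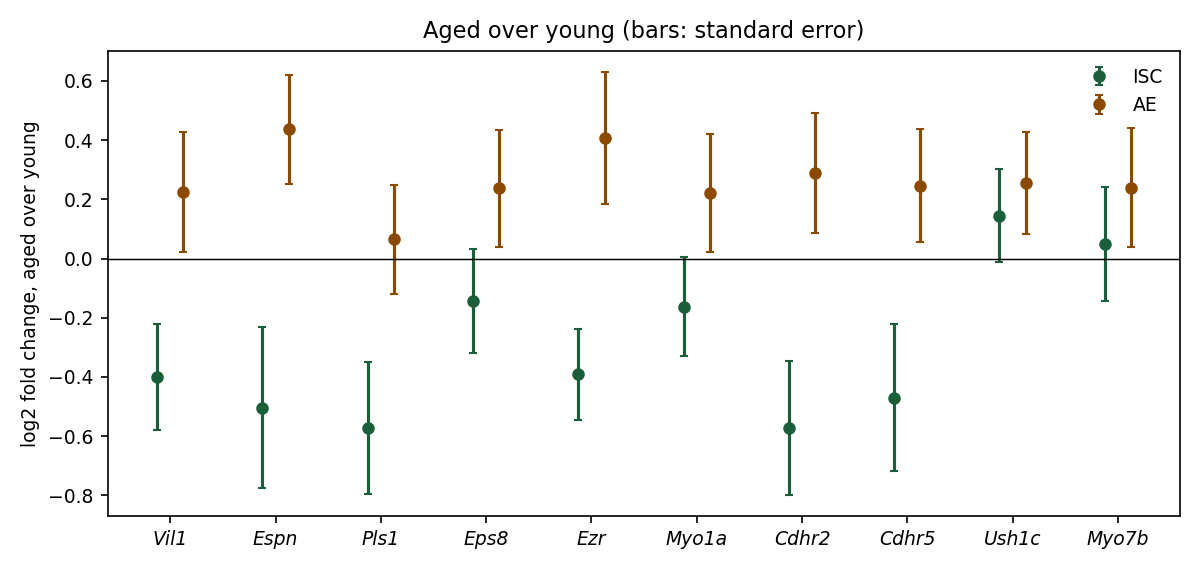
Log2 fold change of aged over young for each of the 10 genes in ISC and in AE, with bars of 1 standard error from edgeR. The ISC values run from -0.57 to 0.14 and the AE values from 0.07 to 0.44, and none passed an FDR of 0.05.

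The difference of the age effects, AE minus ISC, was fitted over the 12 libraries. None of the 10 was called, beside 0.00575% of 17377 genes, which is 1 gene. The fitted differences were all above 0, from 0.10 for *Ush1c* to 0.93 for *Espn*, with a median of 0.63 against -0.09 over all genes. At an unadjusted p under 0.05 there were *Espn* (0.93 ± 0.36, SE), *Cdhr2* (0.85 ± 0.34) and *Ezr* (0.79 ± 0.29), and 4.36% of all genes, and DESeq2, which called 0 of the 10 too, had 6. The difference of the 20 enterocyte markers had a median of 1.10, with 0 called.

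The other genes of the brush border were taken from a list of 53, of which 51 could be tested in young and 49 in aged mice. In young mice 33 were called higher in AE and 5 lower, beside the 27.7% and 25.4% of all genes, and in aged mice 31 higher and 6 lower, beside 30.0% and 34.1%. Some of those called higher entered the test through their AE counts alone, so their direction was fixed in advance. These were *Ush1g* at both ages, *Cdh23* in young mice, and *Msn* and *Myh10* in aged mice. At both ages 29 were higher and 4 lower. Their median log2 fold change was 1.00 in young mice, below the 2.75 of the 10 genes.

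By role, genes of apical trafficking were called higher in 5 of 5 cases, among them *Stx3*, a syntaxin of the apical membrane, with log2 fold changes of 2.02 and 2.22 in young and aged mice. Of 11 genes of the tip and of microvillus growth, 8 were higher and 1 lower in young AE, with *Cobl*, an actin nucleator, at 2.83. Of 8 unconventional myosins, 5 were higher, among them *Myo5b*, a motor of apical vesicle transport, at 1.90. Of 8 genes of the terminal web, 5 were higher and 0 lower, with *Myh14*, a non-muscle myosin heavy chain, at 2.01. Of 5 partners of the adhesion complex and Usher genes tested, 4 were called higher and 1 lower, but *Ush1g* and *Cdh23* among the 4 entered the test through their AE counts alone. *Anks4b*, an adaptor of harmonin and myosin-7b, and *Calml4*, a light chain of that motor, were higher by 2.28 and 1.20, and *Whrn*, the harmonin relative whirlin, was lower, at -1.22.

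Actins and bundlers were divided, with 3 of 7 tested called higher and 2 lower in young AE. Of 7 linkers and scaffolds 3 were higher and 0 lower in young mice, and 4 higher and 2 lower, *Slc9a3r2* and *Slk*, in aged mice. Among those 4, *Msn* entered the test through its AE counts alone. Single roles hold few genes. The 2 of 7 actins and bundlers lower in young AE are near the background of 25.4%. So are the 2 of 7 linkers and scaffolds lower in aged AE, beside 34.1%. *Actb*, cytoplasmic beta-actin, was higher in AE (log2 fold change 1.84 in young mice), while *Actg1*, gamma-actin, was at 259 ± 15.9 CPM in the ISC and 257 ± 33.4 CPM in the AE of young mice (SD, n = 3), with a log2 fold change of -0.01. *Pls3*, the plastin of many tissues, and *Actn1*, an alpha-actinin, had the lowest values of the list. *Pls3* was at 30.02, 25.2 and 36.2 CPM in young ISC and at 11.4, 6.62 and 2.33 CPM in young AE, a log2 fold change of -2.21 ± 0.51 (SE), opposite to *Pls1*. *Actn1* was at -1.57 ± 0.26 (SE), while *Actn4* was higher by 1.57. *Slc9a3r2* was the next lowest, -1.32, and was not called in young mice (FDR = 0.0844 by edgeR) but was in aged mice, at -1.52 (FDR = 0.0345). The naming rule also gave *Ush1g* and *Cdh23*, of the Usher protein complex, and *Stk10*. *Ush1g* and *Cdh23* were at or under 0.06 CPM in every young ISC library, so their fitted values are no measure of size and no fold is given. In young AE *Ush1g* was at 0.57, 0.25 and 3.66 CPM, well above the limit of detection in Y3, and *Cdh23* at 0.57, 0.17 and 0.16 CPM, under that limit in Y2.

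*Stk10*, a kinase that phosphorylates ezrin and its relatives, went from 2.17, 1.82 and 3.87 CPM in young ISC to 40.6, 69.2 and 81.9 CPM in young AE, a log2 fold change of 4.60 ± 0.39 (SE). *Pdzk1*, a PDZ scaffold of the apical membrane, went from 25.7, 15.2 and 50.2 CPM to 580, 545 and 919 CPM, a value of 4.48 ± 0.48 (SE). It is named here after its values were seen. In aged ISC, *Stk10* was at 0.34, 0.54 and 0.67 CPM and *Pdzk1* at 2.95, 7.83 and 6.49 CPM, below every young ISC library. By edgeR 0 of the other brush border genes were called in either age comparison, with 4 of 48 in ISC and 2 of 51 in AE at an unadjusted p under 0.05, and *Pdzk1* (-2.41 ± 0.49, SE) and *Stk10* (-2.36 ± 0.46, SE) had an FDR of 0.594 each in ISC. DESeq2 called both, at FDR values of 1.64e-04 and 0.00515. Both belong to the genes that the study called by age on these libraries, so they are no independent evidence. In the difference of age effects a replicate block, with the code shared by ISC and AE as a term, called both (2.71 ± 0.36 and 2.44 ± 0.33, SE, FDR = 0.0209 by edgeR), and 0 of the 10 members.

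Of 8 transcription factors known to act in brush border genes or in the differentiation of the epithelium, *Klf4* and *Hnf4g* were called higher in AE and 1 lower, shares not far from the 27.7% and 25.4% of all genes. *Klf4* was at 37.4, 28.3 and 35.8 CPM in young ISC and at 371, 360 and 406 CPM in young AE, a log2 fold change of 3.48 ± 0.19 (SE). *Hnf4g* was at 57.6, 53.9 and 118 CPM in young ISC and at 307, 434 and 505 CPM in young AE, a value of 2.44 ± 0.35 (SE). *Cdx1* was called lower, at -0.88 in young and -1.11 in aged mice. *Srf*, whose product binds the CArG box, was at 55.3 ± 7.08 CPM in the ISC and 47.1 ± 1.90 CPM in the AE of young mice (SD, n = 3) and was not called (-0.23, FDR = 0.233). *Hnf4a*, *Cdx2*, *Klf5* and *Gata4* were not called either, with values from -0.20 to 0.20 in young mice. None of the 8 was called between the ages.

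The genes most like the 10 in their pattern over the 12 libraries were *Rfk*, *Adap1*, *Slc9a2*, *Pfkp* and *Mertk*. Likeness was the root mean square difference between the centred log2(CPM + 1) of a gene and the mean of the 10, among 9384 genes with a mean of at least 10 CPM, and it was 0.11 to 0.15 on the log2 scale. *Slc9a2*, a sodium and hydrogen exchanger, went from a mean of 46.8 CPM in young ISC to 300 CPM in young AE, and *Rfk*, riboflavin kinase, from 142 to 883 CPM.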

How the data were processed

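RNA of sorted ISC and AE was sequenced by the study as single-end reads of 50 bases. The authors trimmed reads with Trim Galore 0.4.4, mapped them to GRCm38 with HISAT2 2.1.0 and counted uniquely mapped reads over the merged exons of each gene in SeqMonk. The deposited counts are raw. The library kit keeps the strand, but whether counting used it, and the annotation release, are not given in the sources used here. A second deposited table, with log2 values and -log10 FDR of the genes that the authors called by age, was not used, and 0 of the 10 genes are in it.

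Columns were assigned to groups by their own names, since in 8 of 12 sample titles the code and the rest name different groups. A gene entered a comparison when its counts summed to 10 or more over the libraries compared. Tests were run in R 4.3.3 with edgeR 4.0.16 (TMM, quasi-likelihood test, Benjamini-Hochberg, FDR 0.05). SE is the log2 fold change over the square root of F. AE was compared with ISC at each age, aged with young in each cell type, and the difference of age effects over 12 libraries. Shares were compared by exact permutation in Python 3.11.15. DESeq2 1.42.0, other scalings, filters and fits, and leaving out each library were alternatives. Test scripts were tested on simulated data. Same-code ISC and AE libraries deviated together (r over genes 0.21 to 0.43 in 6 of 6 pairs), so the code served as a replicate block.

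The members and the lists of other brush border genes, regulators and markers were chosen with earlier results of these data known. All 10 members are named, and of the other brush border genes the 3 with the largest and the 3 with the smallest log2 fold change in young AE over ISC, any called by age, and the 5 genes most like the members. The value of 1 gene of the lists is not reported here. Further genes of the lists are examples chosen after their values were seen. Intervals cover 95%. Totals of 11893817 to 110794420 counts leave each of the 10 genes well above 3 counts. Promoters are from RefSeq on GRCm38.p6.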

Additional observations from a re-analysis of the deposited data

How the results depend on the processing

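The call of 10 of 10 genes higher in AE at each age, and of 0 of 10 between the ages and in the difference of age effects, was the same under DESeq2, the older robust edgeR fit, RLE and upper-quartile scaling, no filter, a stricter filter, a fit on all 4 groups, the replicate block and with each library left out, wherever these were run. The replicate block changed no call of the 10 genes. For the shares and ratios, pairing by code and leaving out each library were chosen after the data were examined, and pairing lost the call for *Ezr* on *Myo1a*. It raised the count of other brush border genes called in the difference of age effects from 0 to 2, as did DESeq2 with 2, and that of all genes from 1 to 21. DESeq2 called 2 of the other brush border genes in aged against young ISC. Among all genes DESeq2 called 58 by age in ISC, 18 in AE and 43 in the difference, no filter called 1 in ISC and 2 in AE, and the fit on all 4 groups called 2 in ISC. The cause of these was not tested. With 1 library left out these counts ran from 0 to 1 in ISC, 0 to 1 in AE and 0 to 3 in the difference. The median log2 fold change of the 10 genes in young AE over ISC ran from 2.52 (without AE library Y2) to 2.84 (without ISC library Y3). Upper-quartile scaling moved the median of all genes in young AE over ISC from 0.15 to 0.03 and that of the 10 from 2.75 to 2.63. The values of 3 genes near 0 took the opposite sign with a library left out. The range was -0.16 to 0.16 for *Myo7b* in aged over young ISC, -0.014 to 0.13 for *Pls1* in aged over young AE, and -0.085 to 0.21 for *Ush1c* in the difference. The 10 genes were above 3 counts in every library, while *Ush1g* and *Cdh23* were at 0 counts in 2 and 3 of the 3 young ISC libraries. The fitted value of *Ush1g* in young AE over ISC ran from 3.84 to 8.50 with a library left out.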
